A study of Mus musculus with 8 samples.

Results

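The genes of the cytosolic ribosomal proteins were examined in whole livers of mice aged 1 year. They were chosen by name, as the rows whose symbol is Rpl or Rps followed by a digit, or Rpsa, Rplp0, Rplp1 or Rplp2, without ribosomal S6 kinases and without pseudogene symbols. This gave 86 of 16640 genes, and all 86 matched RefSeq by both identifier and symbol. Of these, 46 encode canonical proteins of the large subunit and 31 canonical proteins of the small subunit. A further 7 are paralogs of a canonical protein (Rpl22l1, Rpl32l, Rpl36al, Rpl37rt, Rpl39l, Rpl3l and Rps27l). The remaining 2, Rpl7l1 and Rps19bp1, share the prefix but are not known as parts of the mature cytosolic ribosome. A mean value of 10 or more was reached by 83 of the 86, and the 3 below it were Rpl32l, Rpl39l and Rpl3l.

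The study compared bulk RNA sequencing of 4 WT livers with 4 livers of mice lacking Huwe1 in the liver only, called Huwe1_LKO here. All ate chow freely for that year. The labels name no Cre driver, sex or litter. The deposited table gives 1 normalized value per gene and group, so values per liver were not analysed here, and each error below is a standard error (SE) of the log2 fold change back-calculated from the deposited p and called implied.

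The cytosolic ribosome translates mRNA into protein, with a small subunit that reads the message and a large subunit that joins the amino acids. Its proteins are needed in near equal numbers, and their mRNAs are among the most abundant of any cell. Most of these mRNAs begin with a run of pyrimidines, the terminal oligopyrimidine (TOP) tract, through which mTORC1 and the RNA-binding protein LARP1 set their translation together. Ribosomal proteins made in excess are degraded, and the yeast relative of HUWE1, Tom1, is known as a ubiquitin ligase of unassembled ribosomal proteins.

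The start regions of 8 members, from both ends and the middle of the range of fold changes, are shown first, because the TOP tract is the sequence these genes are known to share. RefSeq (GRCm38.p6) start regions were found for 66 of the 86 genes, among them 57 of the 77 canonical ones. A tract was counted as a C followed by at least 4 bases that were each C or T, on the strand of the transcript, with its first base no more than 5 bases from the annotated start. It was present in 27 of the 57 canonical genes (47.4%) and in 21.2% of all 27025 genes with a start region. Windows of 30 bases around the annotated start are printed 5′ to 3′, with the counted tract in capitals. They lie at chr7:45128726-45128755 (minus strand) for Rpl13a, chr3:90213629-90213658 (minus) for Rps27, chr4:86857348-86857377 (minus) for Rps6 and chr7:141447641-141447670 (plus) for Rplp2. Those of Rps9 and Rpl28 are chr7:3704031-3704060 (plus) and chr7:4792955-4792984 (plus). No tract was counted in Rps16 (chr7:28350679-28350708, plus) or at either annotated start of Rpl10a, of which chr17:28328461-28328490 (plus) is shown. A start annotated a few bases off leaves a tract uncounted, so a window without capitals says nothing of the transcript's true first base.
Rpl13a: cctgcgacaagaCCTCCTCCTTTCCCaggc
Rps27: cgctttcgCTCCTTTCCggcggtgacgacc
Rps6: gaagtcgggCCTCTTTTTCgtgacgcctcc
Rplp2: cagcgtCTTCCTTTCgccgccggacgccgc
Rpl28: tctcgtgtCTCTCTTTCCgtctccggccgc
Rps9: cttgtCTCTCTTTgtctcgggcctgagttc
Rps16: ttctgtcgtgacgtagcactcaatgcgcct
Rpl10a: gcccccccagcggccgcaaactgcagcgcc
The 27 canonical genes with a counted tract had a median deposited log2 fold change of -0.02 (range -0.29 to 0.24), and the 30 without one had a median of -0.05 (range -0.32 to 0.20). The ranges of the groups overlapped over nearly their whole length.

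Huwe1 itself had deposited values of 2666 (WT) and 1784 (Huwe1_LKO), or 66.9% of WT (log2 fold change -0.58, implied SE 0.13, adjusted p = 0.000425 from the authors' DESeq2 comparison). The defining hepatocyte genes Alb, Apoa1, Ttr, Tat, Cps1 and Fgb were all abundant, at 18547 or more in both groups of the deposited table. Of these 6, Apoa1 was higher in Huwe1_LKO (adjusted p = 0.0152) and 0 were lower, and their summed deposited value was 1.59e+06 (WT) and 2.14e+06 (Huwe1_LKO). Most of that sum was Alb, at 1.19e+06 and 1.63e+06 (adjusted p = 0.0631), and its part in the shares of all reads given below was not tested. Among markers of other liver cells, 2 of 4 neutrophil genes were higher in Huwe1_LKO (summed deposited values 51.7 and 140), and 0 of 33 genes of Kupffer, endothelial, stellate, lymphoid, biliary and erythroid cells passed, nor did any of 4 genes of dividing cells. The dividing-cell genes summed to 103 (WT) and 185 (Huwe1_LKO), and the biliary genes to 900 and 1620, most of it Spp1 (722 and 1410). Of the other cell types only the erythroid genes had a lower sum in Huwe1_LKO, 17265 and 16489. The part of neutrophil, biliary, erythroid or dividing-cell RNA in the values below was not tested. In bulk tissue, fewer cells of a type and less RNA per cell cannot be told apart. The values are relative to the reads of each library, so a change shared by all mRNA of a liver would not appear in them.

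Across the whole set, ribosomal protein mRNA was nearly level between the genotypes. None of the 77 canonical genes passed an adjusted p of 0.05 in the authors' deposited table in either direction. Over all 86 members 0 were higher and 1 was lower, against 4.41% and 5.56% of all 16640 genes, or 9.97% in either direction. The 1 gene was Rpl7l1. Of the 2196 genes with a mean value of 1000 or more, 21.5% were called. At that abundance stood 78 members, and 0 of them passed. At an unadjusted p under 0.05, 6 of 86 members were found (6.98%), against 20.5% of all genes.

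The summed deposited value of the 77 canonical genes was 267062 in WT and 261921 in Huwe1_LKO, 98.1% of the WT sum. They made up 1.54% of all normalized reads in WT and 1.49% in Huwe1_LKO. Counted per kilobase of deposited length, which approximates the share of mRNA molecules, they made up 3.34% and 3.30%. No error can be given for these sums, as each is built from 1 value per group.

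**Figure D1:**
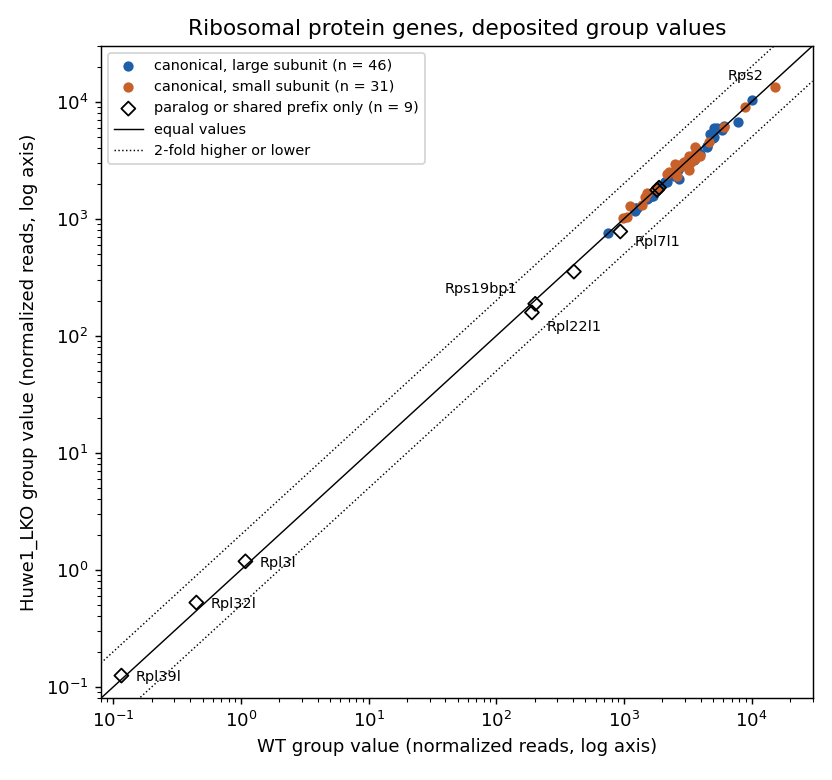
Deposited group value of each ribosomal protein gene in WT (horizontal, normalized reads, log axis) against Huwe1_LKO (vertical, log axis), with filled points for canonical genes by subunit and open diamonds for paralogs and genes that share only the prefix. All 86 points lie between the dotted lines of a 2-fold difference, and Rpl3l, Rpl32l and Rpl39l stand apart at the bottom with values from 0.116 to 1.18.

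Single genes spanned a narrow range. The lowest canonical gene, Rpl10a, was at 80.0% of its WT value in the authors' deposited table and the highest, Rps27, at 118%. Of the 77, 62 lay within 10% of WT, 7 below 90% and 8 above 110%. The standard deviation of the 77 log2 fold changes was 0.11, and the median implied SE of a single gene was 0.12. All genes were measured in the same livers, so their errors may be related. These values therefore do not test whether the genes differ from each other. Over all genes with a mean value of 1000 or more the standard deviation was 0.43 and the median implied SE 0.13.

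The implied 95% intervals give the range of change around each value, if the deposited p tests the deposited fold change. In 39 of the 77 genes the interval lay within 0.3 of 0 on the log2 scale, in 73 within 0.5 and in 76 within 1. The 4 genes not within 0.5 were Rpl10a, Rpl34, Rps27 and Rps9, and the 1 not within 1 was Rpl34. These are intervals for each gene alone, with no adjustment for their number.

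**Figure D2:**
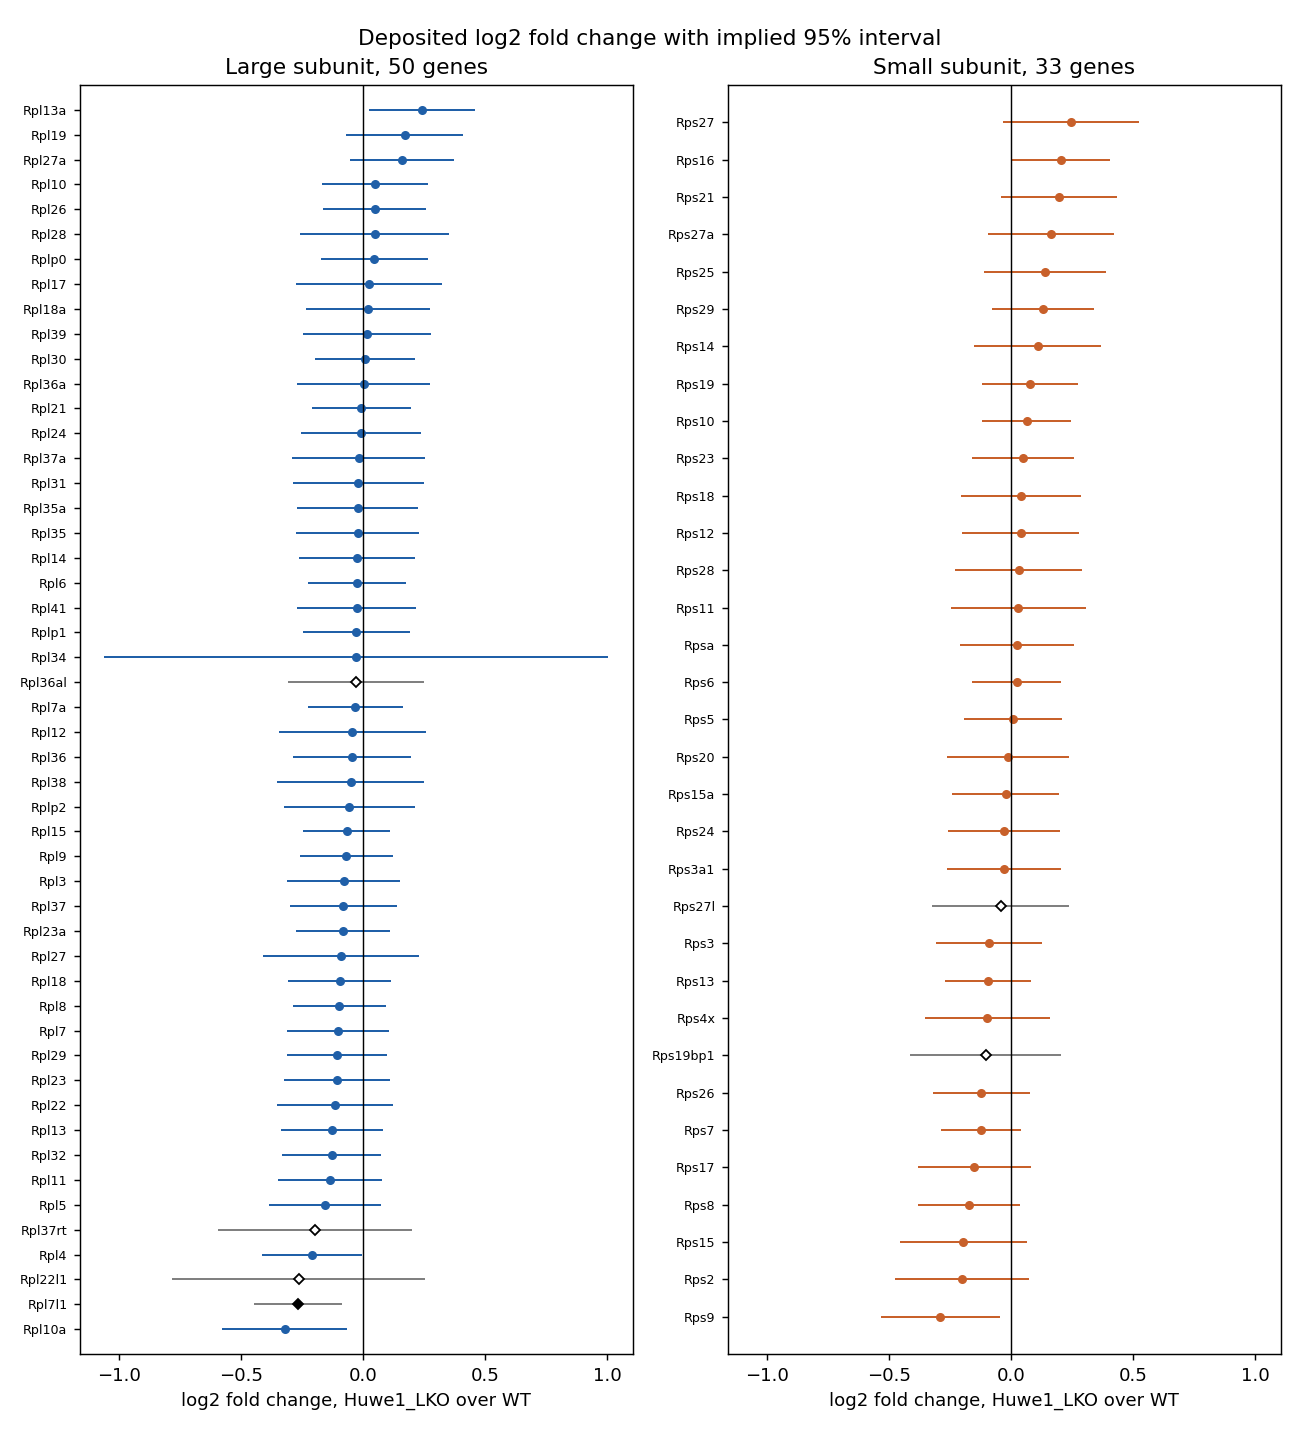
Deposited log2 fold change (Huwe1_LKO over WT, horizontal) of the 83 members with a mean value of 10 or more, by subunit, with bars for the implied 95% interval. Circles are canonical genes, open diamonds are paralogs or genes that share only the prefix, and the filled black diamond is Rpl7l1, the 1 gene with an adjusted p under 0.05. The bar of Rpl34, from -1.06 to 1.00, is far wider than the others.

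In the large subunit, whose core joins amino acids, 12 of 46 canonical genes had a log2 fold change above 0, and in the small subunit, which decodes the message, 17 of 31 did. The medians over all members by subunit were -0.03 (53 genes) and 0.01 (33 genes), beside 0.02 over all 16640 genes, and re-centring on the 2080 most highly expressed genes, whose median was -0.08, put both above 0, at 0.05 and 0.09. The difference between the subunits was not tested, and the table allows no error for these medians. The summed deposited values were 98.2% of WT for the canonical large subunit and 97.9% for the small. Per kilobase, the median deposited value of large-subunit genes was 0.951 of that of small-subunit genes in WT and 0.987 in Huwe1_LKO.

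The lateral stalk of the large subunit recruits the translation factors. Its base Rplp0 had deposited values of 6029 (WT) and 6224 (Huwe1_LKO) (log2 fold change 0.05, implied SE 0.11). The tip proteins Rplp1 and Rplp2 went from 4960 to 4865 and from 1215 to 1168 in the same table, and no member of the stalk passed.

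Rpl5, Rpl11 and Rpl23 bind and inhibit the p53 ligase MDM2 when ribosome assembly is disturbed. The deposited value of Rpl5 was 3568 (WT) and 3201 (Huwe1_LKO), that of Rpl11 3915 and 3563, and that of Rpl23 3827 and 3552. Their log2 fold changes were -0.16, -0.14 and -0.11 beside implied SEs of 0.11, and each interval covered 0. Rps19, the gene most often mutated in Diamond-Blackfan anaemia, was at 1462 and 1542 in the deposited table (log2 fold change 0.08, implied SE 0.10).

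Several members carry a second role or a special position. Rps6, the ribosomal target of the S6 kinases, had deposited values of 6051 (WT) and 6145 (Huwe1_LKO), with an interval from -0.16 to 0.20 on the log2 scale. Rpsa, also known as the laminin receptor, stood at a deposited 8838 and 8984, and the ubiquitin fusion gene Rps27a at 2160 and 2418 (log2 fold change 0.16, adjusted p = 0.566 from the deposited table). Fau, which lies outside the naming rule and encodes a small-subunit protein fused to a ubiquitin-like protein, had deposited values of 3187 (WT) and 3209 (Huwe1_LKO). Rack1, a scaffold on the small subunit, was at 3431 and 3418 in the deposited table. None of these passed.

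Huwe1 lies on chromosome X (151800785 to 151935417 in GRCm38), as do 4 canonical genes, Rpl10, Rps4x, Rpl36a and Rpl39. Their deposited log2 fold changes ran from -0.10 for Rps4x to 0.05 for Rpl10. The other 73 lay on autosomes and had a median of -0.03. No gene of either kind passed.

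The order of abundance was kept for the top 3 canonical genes and changed below them. Per kilobase of deposited length, Rps2 had the highest value in both groups, 15188 in WT and 13218 in Huwe1_LKO. It was followed in both by Rpl10, at 12552 and 12980, and Rplp1, at 10599 and 10396. After these in WT came Rpl41 (8107), Rpl23a (7955) and Rpl28 (7563) per kilobase. In the small subunit Rps15 (7511), Rps26 (7169), Rps27 (6759) and Rps16 (5647) followed Rps2 per kilobase in WT. In Huwe1_LKO that order was Rps27 (8008), Rps26 (6588), Rps15 (6559) and Rps16 (6503). Among the 77 genes Rps27 went from rank 11 in WT to rank 4 in Huwe1_LKO, and Rpl23a from 5 to 8. Neither gene passed (adjusted p = 0.326 and 0.755 in the deposited table), and ranks from 1 value per group carry no error. The lowest per kilobase were Rps15a, at 205 in WT, and Rps20, at 529, with deposited lengths of 5158 and 3446 bases. GENCODE lists coding transcripts of Rps15a from 250 to 5179 bases (median 638.5), so its per-kilobase value is uncertain. The middle 50% of the 77 genes lay between 2903 and 5295 per kilobase in WT and between 2788 and 5224 in Huwe1_LKO, so the spread of levels was also alike.

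The canonical genes farthest below WT were Rpl10a, Rps9, Rpl4 and Rps2. Rpl10a, a large-subunit protein near the exit site of the tRNA (chromosome 17, 28328471 to 28331033 in GRCm38.p6), had deposited values of 2722 (WT) and 2178 (Huwe1_LKO). Its log2 fold change of -0.32 (implied SE 0.13) had an unadjusted p of 0.0121 and an adjusted p of 0.0935 from the authors' DESeq2 comparison. Rps9, an early-binding protein of the small subunit (chromosome 7, 3703954 to 3706897), was at 3219 and 2631 in the same table (log2 fold change -0.29, implied SE 0.12, adjusted p = 0.12). Rpl4, which reaches into the exit tunnel, was at 7764 and 6720 (adjusted p = 0.218 in the deposited table). Rps2, the most abundant member, was at 15264 and 13284, a log2 fold change of -0.20 with an interval from -0.47 to 0.07. Rps15 had the same log2 fold change of -0.20, from a deposited 3928 to 3431. None of these passed after adjustment over all genes.

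The canonical genes farthest above WT were Rps27, Rpl13a, Rps16 and Rps21. Rps27 had deposited values of 2501 (WT) and 2963 (Huwe1_LKO), a log2 fold change of 0.24 with an implied SE of 0.14. Rpl13a, known outside the ribosome from the interferon-gamma-activated inhibitor of translation (chromosome 7, 45125563 to 45128745), was at 5079 and 6003 (log2 fold change 0.24, implied SE 0.11, adjusted p = 0.158 in the deposited table). Rps16 was at 3575 and 4116, and Rps21 at 1115 and 1277 (adjusted p = 0.222 and 0.378 in the deposited table). Rpl19 (5359 and 6027) and Rpl27a (4760 and 5319) followed in the large subunit, with deposited log2 fold changes of 0.17 and 0.16. After re-centring on the 2080 most highly expressed genes, Rpl13a and Rps16 were called higher (adjusted p = 0.0312 and 0.0435). After correction for transcript length and expression level, Rpl13a was called (adjusted p = 0.0449) and Rps16 was not (adjusted p = 0.0621).

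Rpl7l1 was the member that fell. This relative of Rpl7 is thought to act in the assembly of the large subunit rather than in the mature ribosome (chromosome 17, 46773907 to 46782656). It had deposited values of 936.6 (WT) and 779 (Huwe1_LKO), a log2 fold change of -0.27 with an implied SE of 0.09 and an adjusted p of 0.0362. Its call was lost after re-centring on highly expressed genes (adjusted p = 0.205) and after correction for length and level (adjusted p = 0.194). Rpl7 itself had deposited values of 4441 (WT) and 4139 (Huwe1_LKO) and did not pass. The other gene with only the prefix, Rps19bp1, known as a partner of RPS19 and of the deacetylase SIRT1, was at 202 and 188 in the deposited table (log2 fold change -0.10, implied SE 0.16).

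The paralogs differed widely in level, and none of the 7 passed. Rps27l and Rpl36al were expressed like ordinary members, at deposited values of 1819 and 1883 (WT) against 1766 and 1845 (Huwe1_LKO). Per kilobase Rpl36al stood at 145% of Rpl36a in WT and 142% in Huwe1_LKO. Rps27l, known as a p53 target, stood at 51.6% of Rps27 per kilobase in WT and 42.2% in Huwe1_LKO. Rpl22l1, a paralog that Rpl22 is known to hold down, was at 190 and 158 in the deposited table (log2 fold change -0.26, implied SE 0.26), a difference no larger than its error. Rpl3l, known from muscle, and Rpl39l, known from testis, were at 1.08 and 0.116 in WT and 1.18 and 0.125 in Huwe1_LKO in the deposited table. Rpl32l was at 0.447 and 0.526. At such low values the table allows no statement on a difference in the last 3.

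Sequence shared with copies limits what single rows can show. RefSeq for GRCm38 lists 321 genes whose name has a ribosomal protein prefix and the pseudogene mark, and 2 of them, Rpl34-ps1 and Rpl31-ps12, have a row in the table. In the best local alignment of GENCODE transcripts, Rpl37rt, a retrotransposed copy, matched Rpl37 at 99.7% of 344 bases with a shared run of 257 bases, and its deposited value was 24.2% of that of Rpl37 in WT and 22.4% in Huwe1_LKO. Rpl31-ps12 matched Rpl31 at 98.9% of 375 bases, and Rpl34-ps1 matched Rpl34 at 99.4% of 354 bases. Rpl32l matched Rpl32 at 97.5% of 398 bases with a shared run of 94 bases. The deposited value of Rpl32l was only 0.0176% of that of Rpl32 in WT and 0.0226% in Huwe1_LKO. By contrast Rpl22l1 and Rps27l matched their partners at 76.5% and 79.3% of the aligned bases, with no shared run above 26 bases. How reads that fit several copies were counted is not stated here, so the values of the near-identical copies and their partners are uncertain.

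Rpl34 stood apart in its error. Its deposited values were almost equal, 1259 in WT and 1234 in Huwe1_LKO, yet its implied SE was 0.52, while the other 76 canonical genes ranged from 0.08 to 0.16. Of 2408 genes within 2-fold of its mean value, 7 (0.291%) had a larger implied SE, and the median over the 2408 was 0.13. The near-identical copy Rpl34-ps1 shared this property, with 329 and 396 in the authors' deposited table, a log2 fold change of 0.27 and an implied SE of 0.53. Only 23 of 4355 genes of like level had a larger one. The other pseudogene row, Rpl31-ps12, had an implied SE of 0.25 beside a median of 0.22 at its level. The largest implied SE in the whole table was 0.57, so the values of the Rpl34 pair are near the ceiling and may understate the spread. Which livers were high or low cannot be read from group values. The part of reads shared between the copies was not tested.

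**Figure D3:**
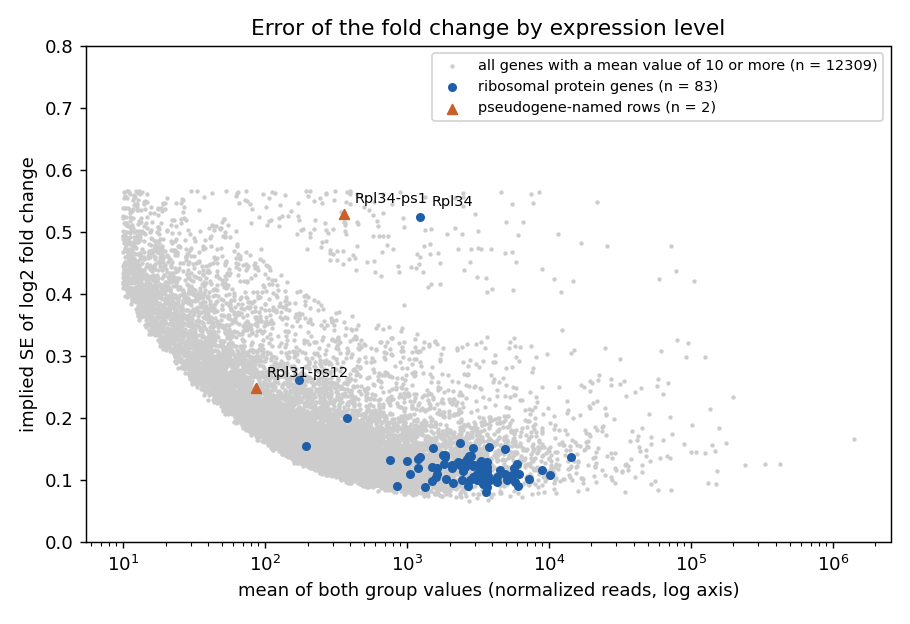
Implied SE of the log2 fold change (vertical) against the mean of both group values (horizontal, normalized reads, log axis), with grey points for 12309 genes with a mean value of 10 or more, blue circles for 83 ribosomal protein genes and triangles for 2 pseudogene-named rows. Rpl34 and Rpl34-ps1 sit at 0.52 and 0.53 among the most variable genes, while the other canonical genes lie between 0.08 and 0.16.

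Genes whose products build the ribosome were read from a separate list. Of 60 listed genes of rRNA processing and ribosome assembly, 8 fell and 0 rose by the authors' deposited p, 13.3% lower against 5.56% of all genes, with a median log2 fold change of -0.10 beside 0.02 over all genes. Nop10 and Nhp2, both core proteins of the H/ACA particles that guide pseudouridylation of rRNA, fell from 843 to 556 and from 425 to 271 (adjusted p = 0.000113 and 0.00594 in the deposited table). Rrp12, a factor of subunit export, fell from 111 to 62.0 (log2 fold change -0.85, implied SE 0.19). Bop1, of the complex that processes large-subunit rRNA, fell from 413 to 294, and Las1l, which cuts the second internal spacer, from 431 to 327 in the same table. Mdn1, a giant ATPase that strips assembly factors from the large subunit, fell from a deposited 153 to 103. These 6 genes kept their direction and their call under each change of centring and after correction for length and level. The other 2, Nol6 (from a deposited 494 to 373) and Ddx56 (from 458 to 366), kept direction and call after that correction. After re-centring on highly expressed genes they stayed below 0 (log2 fold changes -0.32 and -0.24). Their calls were lost there (adjusted p = 0.106 and 0.145), which left 6 of 60 lower. Nop56 was then called higher, as it was after the correction, so that 1 of 60 was higher under either. Whether the assembly list differs from the ribosomal proteins was not tested.

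Other steps changed in single genes. Among 15 genes of RNA polymerase I, which transcribes rRNA, 1 rose (6.67%, against 4.41% of all genes) and 0 fell, and the median log2 fold change was 0.12. The riser was Ubtf, the upstream binding factor of the rRNA promoter, from a deposited 964 to 1215 (adjusted p = 0.0291). Among 19 chaperones and importers of ribosomal proteins, 1 fell (5.26%, against 5.56% of all genes), the importin Ipo4, from 616 to 447 (adjusted p = 0.00104 in the deposited table). Of 36 initiation factors 1 fell (2.78%, against 5.56% of all genes) and 0 rose. A log2 fold change below 0 was found in 31 of them (86.1%), beside 46.9% of all genes and 62.4% of those with a mean value of 1000 or more. That gene was Eif4g3, a scaffold of the cap-binding complex, which dropped from a deposited 1248 to 787.6 (log2 fold change -0.66, implied SE 0.12, adjusted p = 2.19e-06). Of 13 elongation and termination factors 1 fell (7.69%, against 5.56% of all genes), the ribosome recycling factor Abce1, from a deposited 1191 to 985 (adjusted p = 0.00965, and 0.107 after re-centring on highly expressed genes).

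Of 19 listed genes of ribosome quality control and ubiquitin ligases, 2 rose (10.5%, against 4.41% of all genes) and 1 fell (5.26%, against 5.56%) by the authors' deposited p. Zfp598, a ubiquitin ligase that marks the small subunit of collided ribosomes, rose from 1195 to 1488, and Gcn1l1, the collision sensor GCN1, from 925 to 1139 (adjusted p = 0.024 and 0.0195 in the deposited table). Vcp, the ATPase that extracts ubiquitinated proteins, fell from 5814 to 4424 (adjusted p = 0.00218 in the deposited table). After correction for length and level, the calls of Gcn1l1 (adjusted p = 0.0817) and Ubtf (adjusted p = 0.0949) were lost.

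The mTORC1 and S6 kinase list had 2 lower and 0 higher of 22 genes, 9.09% beside the 5.56% of all genes that were lower. Rptor, which brings substrates to mTORC1, fell from 701 to 567 and the kinase Rps6ka1 from a deposited 386 to 277 (adjusted p = 0.0475 and 0.0457). Rps6ka1 was listed as an S6 kinase by name. Rps6kb1, the main kinase of Rps6, and Rps6kb2 did not pass (log2 fold changes 0.11 and -0.09, adjusted p = 0.640 and 0.847 in the deposited table). The calls of Rptor and Rps6ka1 were lost after re-centring on highly expressed genes (adjusted p = 0.193 and 0.118). That of Rps6ka1 was also lost after correction for length and level (adjusted p = 0.0779). Of 18 further TOP mRNAs, Rack1 among them, 1 rose (5.56%, against 4.41% of all genes), Hnrnpa1, from 621 to 862 (adjusted p = 0.0459 in the deposited table, and 0.0523 when centred on genes with a mean value of 10 or more), 0 fell and the median log2 fold change was -0.09. All of the 18 except Hnrnpa1, Tpt1 and Vim also stand on another of the context lists, so this median largely repeats genes counted there. A list of 12 snoRNA host genes had no rows and was not analysed here.

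**Figure D4:**
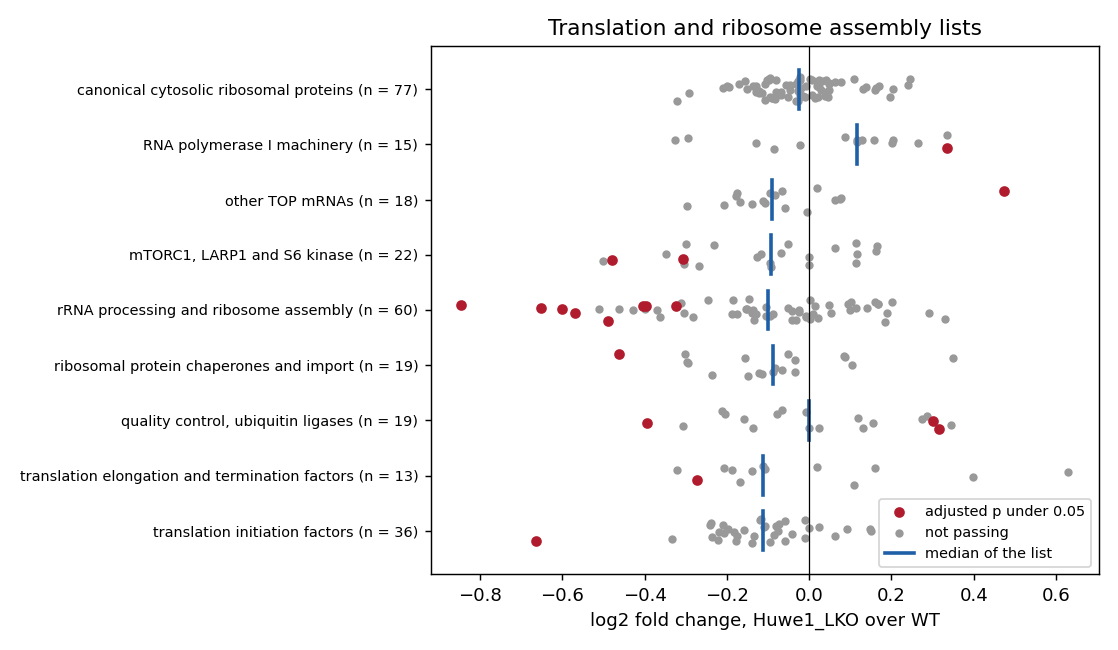
Deposited log2 fold change (Huwe1_LKO over WT, horizontal) of the genes of each plotted list, 1 point per gene, spread vertically for legibility, with red points for an adjusted p under 0.05 and a blue bar for the median of the list. A gene that stands on several lists is plotted in each. The 77 canonical ribosomal protein genes lie between -0.32 and 0.24 with 0 red points, and the assembly list has 8, all to the left of 0.

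The ribosome of mitochondria, whose proteins are encoded by separate nuclear genes, serves as a comparison. Of 78 genes named Mrpl or Mrps, 8 fell and 0 rose by the authors' deposited p (10.3%, against 5.56% of all genes lower). All 78 had a mean value of 10 or more, with a median of 521 in WT. Of all genes with such a mean, 7.40% were lower and 48.7% were below 0. The median log2 fold change of the 78 was -0.16, and their summed value was 89.7% of WT, beside 98.1% for the canonical cytosolic genes. Below 0 were 67 of 78 (85.9%), beside 46.9% of all genes and 62.4% of those with a mean value of 1000 or more. Values of this list after re-centring or correction for length and level are not given here. The lists share no gene, and the difference between them was not tested.

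**Figure D5:**
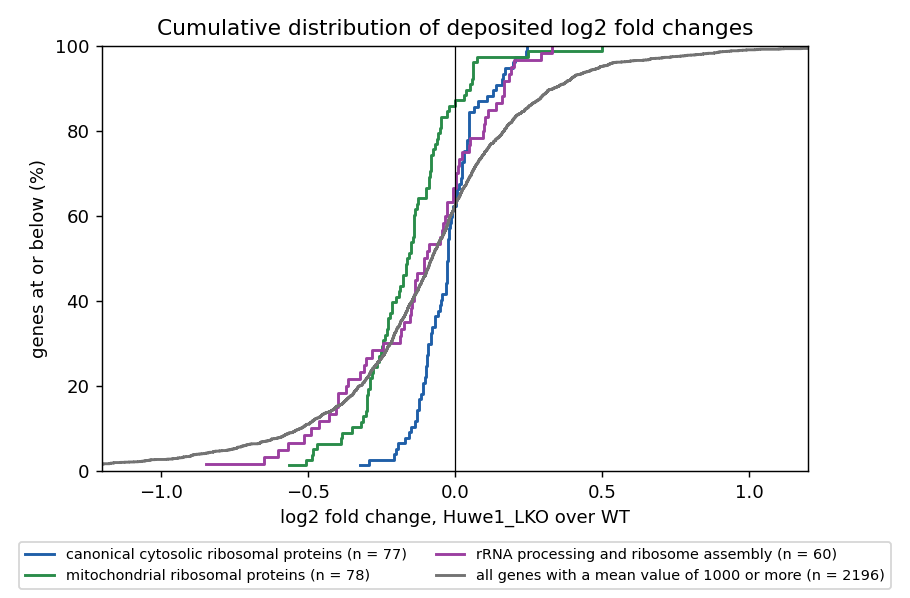
Cumulative share of genes (vertical, %) at or below each deposited log2 fold change (horizontal, Huwe1_LKO over WT) for 77 canonical cytosolic ribosomal proteins, 78 mitochondrial ribosomal proteins, 60 assembly genes and 2196 genes with a mean value of 1000 or more. The curve of the cytosolic ribosomal proteins is the steepest of the 4, with its median at -0.02, and that of the mitochondrial ones is shifted to -0.16.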

How the data were processed

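RNA from 4 WT and 4 Huwe1_LKO livers was extracted with a commercial kit, and a service company made and sequenced the libraries, per the labels' protocols. The authors used DESeq2 and the mm10 build, per the submitters' processing notes. The sources used here do not give the aligner, counting or filters. The authors deposited a normalized signal, with a single value for each gene in each group. These sum to 17347886 in WT and 17533080 in Huwe1_LKO, and depth per liver was not analysed here. The deposited log2 values equal the log2 ratio of the group signals to within 4.71e-08. The deposited p-value columns give raw and adjusted p, and the adjusted values equal Benjamini-Hochberg values over all 16640 genes to within 1.74e-06. The source of the deposited lengths is not stated. Whether the livers are separate animals is not stated either, so the p-values may measure only the spread between these samples.

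Calls are the authors', at an adjusted p under 0.05. The implied SE is the absolute log2 fold change over the normal deviate of its raw p (two-sided), which assumes a Wald test, and intervals are 95% normal intervals. If the deposited fold changes were shrunken toward 0 after the test, which the sources used here do not say, these errors are too small. Even rows near 0 had small implied SEs, such as 0.21 for Rpl39l at 0.116 in WT, and the largest of any gene was 0.57. Shrinkage was not tested. The fold changes equal the ratios of the group values, so any shrinkage would also be in those values and their sums. Re-centring subtracted the median of the most highly expressed genes, 1 in 8 of all, or of genes with a mean value of 10 or more. The correction for length and level subtracted the median of genes in the same of 5 length and 10 level classes. Each then took p from the implied SE. The computations were tested on simulated data and ran in Python 3.11.15 with pandas 2.3.3, numpy 2.4.6, scipy 1.17.1 and Biopython 1.88.

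Members and lists were chosen with earlier results of these data known, and list genes were matched by symbol, RefSeq synonym or older symbol. The rule for named genes took those called, the extremes of fold change and of value per kilobase in each subunit, all paralogs and a list by role. Rpl34, Rpl4, Rpl7, Rpl31, Rpl37, Rps15a, Rps20, Fau, Rack1, Nol6, Ddx56, Nop56 and the genes of the closing section were named after their values were seen. One gene of the context lists is not reported here.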

Additional observations from a re-analysis of the deposited data

How the results depend on the processing

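The count of members called higher, 0 as deposited, was 2 after re-centring on the most highly expressed genes and 1 after correction for length and level. The count called lower, 1 as deposited, was 2 at an adjusted p under 0.1 and 0 at an adjusted p under 0.01, after re-centring on highly expressed genes, after that correction and among canonical genes alone. Of the 189 genes in the context lists, 4 were higher and 14 lower as deposited. The higher count was 0 at an adjusted p under 0.01 and 7 after re-centring on highly expressed genes, where the lower count was 9. The median of the large subunit ranged from -0.04 to 0.05 and that of the small subunit from -0.00 to 0.09 over all alternatives. Both subunits were at their highest after re-centring on highly expressed genes, and the sign of the large subunit turned there and after correction for length and level, where it was 0.04. The sign of 5 of 35 named members, none of them called, turned after re-centring on highly expressed genes, and of 5 after that correction. The 2080 highly expressed genes had a median log2 fold change of -0.08 and held 76 members.

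Leaving out each liver was not run, since the table gives 1 value per group. No paired analysis was possible because the columns carry no replicate numbers. The implied intervals of single canonical genes other than Rpl34 lie within 2-fold of WT. If the deposited fold changes were shrunken and the p belongs to an unshrunken one, these intervals are too narrow. The data show nothing of ribosome number, translation or protein levels.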

Other observations

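The ribosomal S6 kinase genes, left out by name from the ribosomal proteins, had 10 rows in the authors' deposited table. Rps6ka1 was the one that passed, and the others ranged in level from Rps6ka6, at 0.818 in WT and 0.676 in Huwe1_LKO, to Rps6kb1, the main kinase of Rps6, at 473 and 512 (log2 fold change 0.11, implied SE 0.10). Rps6ka4 was at 201 and 254 (adjusted p = 0.11 in the deposited table), and Rps6kl1 at 6.97 and 14.1 (adjusted p = 0.198).

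Among the mitochondrial ribosomal proteins that fell, Mrps22 went from a deposited 336 to 227, Mrpl16 from 466 to 333 and Mrps18b from 934 to 674 (the authors' adjusted p = 4.23e-05, 0.00158 and 0.00645). Mrpl47 was at 150 and 212 in the deposited table (adjusted p = 0.0565) and had the highest log2 fold change of the 78, at 0.50.

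The symbols Rpl10l, Rpl32p, Rpl6l, Rps12l1, Rps23rg1, Rps27rt, Rps3a2, Rps3a3 and Rps4l fit the naming rule in RefSeq but had no rows, so they were not analysed here.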
